A study of Mus musculus with 5 samples.

Results

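The genes described here handle cholesterol and lipid in cells that clear myelin debris. They were chosen by symbol to cover lipoprotein carriers and uptake receptors, release of cholesterol from the lysosome, efflux, storage, nuclear receptors, sterol sensing and sterol synthesis. All 35 were found among the 49671 genes with an FPKM value (fragments per kilobase of gene, scaled to 1000000 counted read pairs) and among the 24984 genes with read counts. They fall into 7 roles, and 32 of them had a read in at least 1 library.

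RNA was sequenced from myeloid cells sorted from demyelinated lesions of the corpus callosum, a white matter tract of the brain. All mice were male, wild-type (WT) C57Bl/6J animals aged 10 weeks that received 2 µl of 1% lysolecithin (LPC), a detergent-like lipid that strips myelin at the injection site, and all cells were taken 10 days post-lesion (10 dpl). Live CD11b+ Ly6G- CD3- cells were divided by CD45, the pan-leukocyte surface protein, into CD45lo microglia (3 libraries) and CD45hi monocytes, which the sample labels call monocyte-derived macrophages (2 libraries). Libraries are numbered within each group in the order of the replicate numbers on the labels. There was no unlesioned sample and 1 time point only, so every comparison is between the 2 sorted populations. The study counts its sequenced samples in mice and recovered far fewer CD45hi than CD45lo cells from a mouse. The labels tie no library to an animal, and p-values measure the spread between these libraries.

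Myelin is rich in cholesterol, whose ring mammalian cells cannot break open, so a phagocyte that engulfs myelin has to esterify and store the sterol or export it. Lysosomal acid lipase frees cholesterol from its esters, the NPC proteins pass it out of the lysosome, and ABC transporters load it onto apolipoprotein E. Oxysterols and sterol precursors switch on liver X receptors (LXR), which raise efflux genes, while cholesterol in the endoplasmic reticulum holds back the SREBP factors that drive sterol synthesis.

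The libraries differed in depth and in complexity before any gene was compared. Total counts ran from 3417150 to 9021700 read pairs, and a count of 0 allowed a level of up to 0.333 to 0.878 counts per 1000000 read pairs (CPM) by library, from a limit of 3 counts. Monocyte library 1 had the fewest reads, with 1392 genes at 10 reads or more against 4230 in monocyte library 2 and 5994 to 11653 in microglia. Microglia library 3 had the 5994, the lowest of its group. Mitochondrially encoded transcripts took between 11.1% and 39.9% of the counts. Of the microglia markers, *Sall1* was at 7595, 2208 and 1665 reads in microglia and at 20 and 49 reads in monocytes. Of the 11 monocyte markers 5 were listed at 0 in every library, and the defining receptor *Ccr2* had no read in either monocyte library against 12, 52 and 0 reads in microglia. The monocyte marker reads of monocyte library 1 came mostly from *Vcan* (8006 reads) and *Fn1* (11241 reads). *Ahnak* had 11 and 494 reads in monocytes against 3, 1 and 0 in microglia, and *S100a4* had 6 reads in monocyte library 2 only. *Plac8* had no monocyte read against 2, 14 and 0 reads in microglia. In these libraries the name monocyte therefore rests mainly on the CD45hi gate. By flow cytometry the paper found every CD45hi lesion cell positive in a *Ccr2* reporter mouse, and Ly6C on part of such cells. It also reported monocyte-enriched genes as higher in the CD45hi sort.

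Cholesterol genes were read in all 5 libraries, but few of them reached every library. Counts of 10 or more were found for 30, 28 and 16 of the 35 members in microglia libraries 1 to 3, and for 9 and 18 members in monocyte libraries 1 and 2. With reads scaled to the smallest library total these numbers were 30, 28 and 14 in microglia and 9 and 17 in monocytes. Only 9 members had 10 or more reads in every library (25.7%, against 4.87% of the 20182 genes with a read), and these were *Apoe*, *Lpl*, *Lrp1*, *Lipa*, *Npc1*, *Npc2*, *Abca1*, *Abcg1* and *Ppard*. Both CPM and FPKM are set by library totals, and 24 of the 32 members with a read had a higher mean FPKM in microglia, beside 79.0% of all genes with a read. *Pparg*, a nuclear receptor of lipid storage, and the sterol synthesis genes *Idi1* and *Mvd* had no read in any library. In bulk samples a lower share of cells that express a gene and less RNA per cell cannot be told apart.

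**Figure D1:**
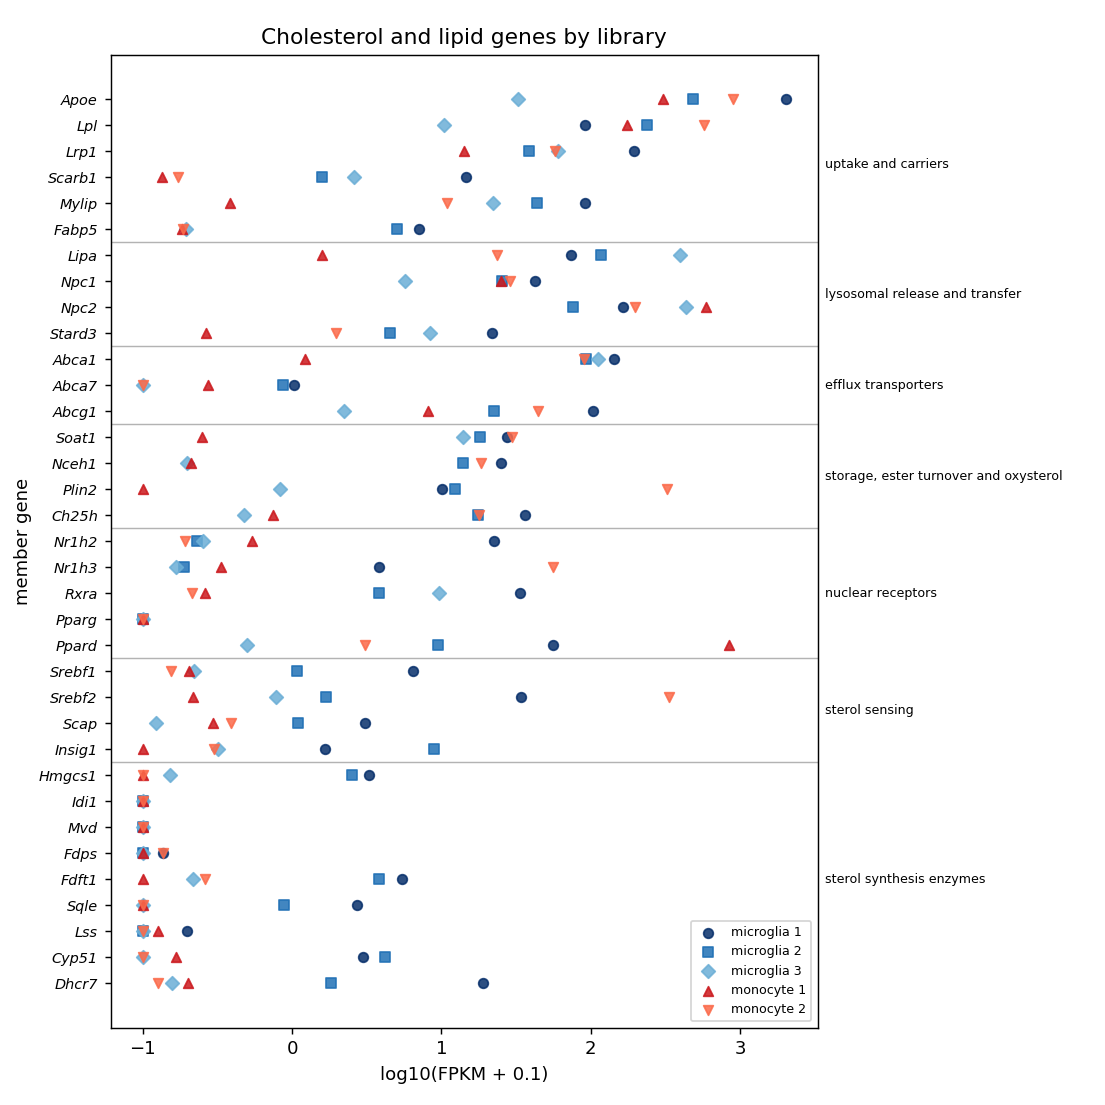
FPKM of the 35 members in each library, as log10(FPKM + 0.1), with members ordered by role. Blue symbols are the 3 microglia libraries and red symbols the 2 monocyte libraries. *Npc2* is at 75.6 FPKM or more in every library, while the sterol synthesis enzymes lie at the left edge except in microglia libraries 1 and 2.

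The 2 populations were compared gene by gene to ask whether they differ in this pathway. The quasi-likelihood test of edgeR, scaled by TMM (a factor per library that balances the bulk of genes), was fitted to the 10105 genes that passed its expression filter, and p-values were adjusted over all of them by the Benjamini-Hochberg method. Of the 35 members 29 passed the filter, and *Nr1h2*, *Pparg*, *Idi1*, *Mvd*, *Fdps* and *Lss* did not. No member passed an adjusted p of 0.05 in either direction, beside 0.0594% of all genes tested that were higher in monocytes and 0% that were lower. At an unadjusted p under 0.05, 5 members were higher in monocytes (8.52% of all genes) and 0 were lower (3.35% of all genes). DESeq2 called 8 members higher in monocytes (9.77% of all genes) and 0 lower (0.990% of all genes), with the 5 just counted and *Apoe*, *Npc1* and *Npc2* among them. With limma-voom 0 members were called in either direction, beside 0.317% of all genes higher and 0% lower, and 9 were higher at an unadjusted p under 0.05 (5.99% of all genes).

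The scaling sets much of the direction of these fold changes. TMM factors were 3.76, 2.73 and 1.71 for the microglia libraries and 0.0929 and 0.611 for the monocyte libraries. The median log2 fold change of monocytes over microglia was 1.67 over the 29 tested members and −1.11 over all genes tested with TMM, and −2.43 and −4.73 with library totals. On the scale of library totals, 10 members lay below the whole microglia range in each monocyte library, beside 48.0% of all genes tested, and 0 lay above it, beside 0.673%. Of the 10, *Scarb1*, *Mylip*, *Lipa*, *Stard3*, *Abca1* and *Rxra* had 10 or more reads in every microglia library, while *Fabp5*, *Srebf1*, *Insig1* and *Hmgcs1* had 1 to 4 reads in microglia library 3, too few to place the monocyte libraries below it at this depth. With TMM-scaled CPM the counts were 2 lower (21.3% of all genes) and 7 higher (5.00% of all genes), the latter *Apoe*, *Lpl*, *Lrp1*, *Npc1*, *Npc2*, *Abcg1* and *Nr1h3*. The 2 lower were *Scarb1* and *Hmgcs1*, with 1 and 0 reads in monocyte library 1, and *Nr1h3* had 2 reads there. Such reads are under the limit of 3 counts, too few to place that library outside the microglia range with TMM.

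**Figure D2:**
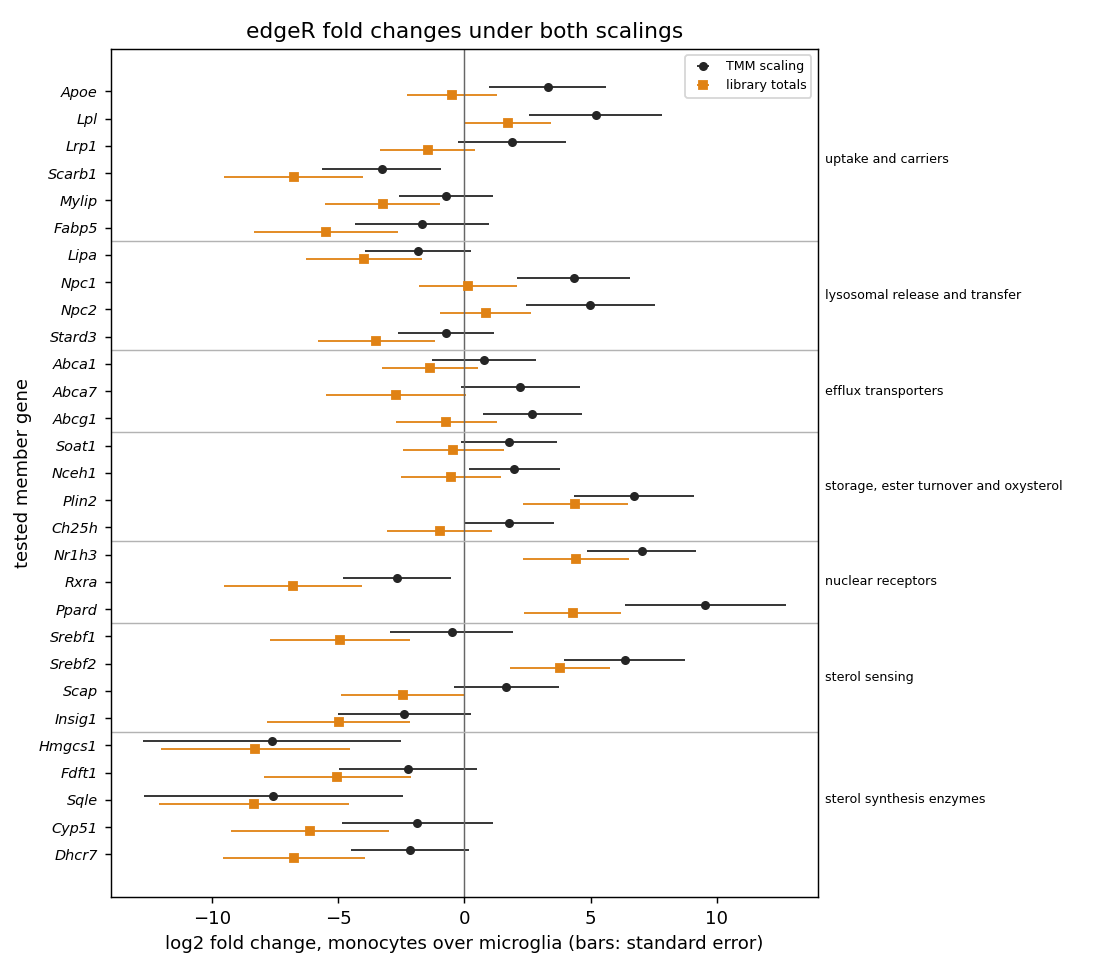
Log2 fold change of monocytes over microglia for the 29 tested members from edgeR, with bars of 1 standard error, under TMM scaling (black circles) and library totals (orange squares). Every member lies further to the left with library totals, and *Apoe* moves from 3.30 to −0.49.

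Carriers and uptake receptors held most of the member transcript in 3 of the 5 libraries. Their summed FPKM was 2411, 811 and 127.8 in microglia libraries 1 to 3 and 494 and 1545 in monocyte libraries 1 and 2. *Apoe* (chromosome 7, 19696109 to 19699188 of GRCm38), the apolipoprotein that carries cholesterol between brain cells, was at 2014, 486 and 32.5 FPKM in microglia and at 306 and 900.4 FPKM in monocytes. It ranked 16th, 38th and 1326th among the genes read in the microglia libraries and 110th and 32nd in the monocyte libraries. The groups overlapped, and the widest gap lay within microglia, between libraries 1 and 3. Microglia averaged 844 ± 1038 FPKM (SD, n = 3) and monocytes 603 ± 421 FPKM (SD, n = 2), and edgeR gave a log2 fold change of 3.30 (SE 2.31, adjusted p = 0.528).

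*Lpl* (chromosome 8, 68880491 to 68907448), which encodes lipoprotein lipase and splits the triglyceride of lipoproteins, was at 90.8, 237 and 10.3 FPKM in microglia and at 174 and 576 FPKM in monocytes. Monocyte library 2 was the highest and microglia library 3 the lowest, and the groups overlapped because microglia library 2 exceeded monocyte library 1. edgeR put the log2 fold change at 5.20 (SE 2.62), with an adjusted p of 0.415, and 1.74 with library totals. *Lrp1*, a large endocytic receptor that takes up apolipoprotein E particles and myelin debris, had 22813, 6118 and 6285 reads in microglia and 847 and 6629 reads in monocytes. In CPM, monocyte library 1 was the lowest of the 5 and monocyte library 2 lay inside the microglia range.

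*Scarb1*, the receptor that takes cholesteryl ester from high-density lipoprotein, had 814, 115 and 126 reads in microglia and 1 and 4 reads in monocytes. The groups did not overlap under either scaling, but with TMM this rested on 1 read in monocyte library 1, under the limit of 3 counts. The log2 fold change was −3.28 (SE 2.35, edgeR adjusted p = 0.535). *Mylip*, the ubiquitin ligase that LXR induces to limit lipoprotein uptake, had 1850, 1204 and 400 reads in microglia and 3 and 217 reads in monocytes. Its groups did not overlap in CPM, and 98.6% of the monocyte reads came from monocyte library 2. *Fabp5*, an intracellular fatty acid carrier, had 165 and 158 reads in microglia libraries 1 and 2 and 1 to 2 reads in each of the other 3 libraries.

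Lysosomal genes were the best covered of the roles, and the 4 of them did not behave alike. Their summed FPKM was 303, 223 and 840.4 in microglia and 619 and 253 in monocytes. *Npc2* (chromosome 12, 84754562 to 84773152), the soluble lysosomal protein that binds free cholesterol and hands it to NPC1, was at 165, 75.6 and 433 FPKM in microglia and at 593 and 199 FPKM in monocytes. It was between 247 and 1933 CPM in the 5 libraries. Monocyte library 1 was the highest, microglia library 3 exceeded monocyte library 2, and the log2 fold change was 4.99 (SE 2.56, edgeR adjusted p = 0.424) with TMM and 0.84 with library totals. Leaving out monocyte library 1 moved it to 1.27, and leaving out microglia library 3 to 6.60.

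*Npc1*, the membrane protein that moves cholesterol out of the lysosome, was at 42.5, 25.2 and 5.59 FPKM in microglia and at 24.9 and 28.9 FPKM in monocytes. Both monocyte libraries lay inside the microglia range, at a mean of 26.9 ± 2.86 FPKM (SD, n = 2) against 24.4 ± 18.5 FPKM (SD, n = 3). edgeR gave a log2 fold change of 4.34 (SE 2.24, adjusted p = 0.425) with TMM, 2.29 without monocyte library 1, and 0.14 with library totals.

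*Lipa* (chromosome 19, 34492318 to 34527474), which encodes lysosomal acid lipase, was at 73.5, 118 and 394 FPKM in microglia and at 1.48 and 23.6 FPKM in monocytes. Both monocyte libraries were below every microglia library. Its log2 fold change by edgeR was −1.83 (SE 2.10, adjusted p = 0.674), and with TMM-scaled CPM the groups overlapped. Without microglia library 3 it was −0.19, and without monocyte library 2 it was −3.61. A ratio within a library needs no scaling factor, and the FPKM of *Lipa* over that of *Npc2* was 0.445, 1.56 and 0.910 in microglia and 0.00249 and 0.118 in monocytes. Each monocyte library had a lower ratio than any microglia library. Among the 36 such ratios of the 9 members with 10 or more reads in every library, 11 did not overlap between the groups (30.6%), close to the 29.3% found over all pairs of the 982 genes with that depth.

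*Stard3*, a late endosomal sterol transfer protein, had 510, 143 and 173 reads in microglia and 2 and 43 reads in monocytes. Its groups did not overlap in CPM and overlapped in TMM-scaled CPM.

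Efflux transporters were read in every library. Their summed FPKM was lowest in monocyte library 1, at 9.29 against 113 or more in each other library. *Abca1* set this, while *Abcg1* and *Abca7* were not lowest there. *Abca1* (chromosome 4, 53030787 to 53159895), the transporter that loads cholesterol onto lipid-poor apolipoproteins, was at 144, 93.5 and 111 FPKM in microglia and at 1.13 and 89.4 FPKM in monocytes. The microglia libraries lay close together, at 116 ± 25.4 FPKM (SD, n = 3), and monocyte library 2 lay just under the lowest of them while monocyte library 1 had 40 reads. The log2 fold change was 0.79 (SE 2.06, edgeR adjusted p = 0.861) with TMM and −1.37 with library totals, so neither direction can be given. Without monocyte library 2 it was −2.89.

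*Abcg1*, which exports cholesterol to mature high-density lipoprotein, was at 103, 22.4 and 2.13 FPKM in microglia and at 7.99 and 44.5 FPKM in monocytes. The groups overlapped, with a log2 fold change of 2.70 (SE 1.95, edgeR adjusted p = 0.535) with TMM and −0.71 with library totals. *Abca7*, a related transporter of phospholipid, had 42, 47 and 0 reads in microglia and 4 and 0 reads in monocytes. Its FPKM was under 1 in every library.

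Storage and ester turnover genes were abundant in monocyte library 2 and nearly absent from monocyte library 1. Their summed FPKM was 98.8, 61.7 and 15.1 in microglia and 0.911 and 390.5 in monocytes. *Plin2* (chromosome 4, 86648386 to 86670060), the coat protein of cytoplasmic lipid droplets, had 233, 388 and 15 reads in microglia and 0 and 7434 reads in monocytes. The 2 monocyte libraries lay at opposite ends, and monocyte library 2 held 92.1% of all *Plin2* reads. By edgeR the log2 fold change was 6.71 (SE 2.38, adjusted p = 0.181). Without monocyte library 1 it passed edgeR's threshold at 7.43 (adjusted p = 0.00101, 1 of 3 members so called, beside 2.61% of all genes), and without monocyte library 2 the value was −10.07.

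*Soat1*, which esterifies cholesterol for storage, was at 27.5, 18.1 and 13.9 FPKM in microglia and at 0.15 and 29.5 FPKM in monocytes. *Nceh1*, a hydrolase that frees cholesterol from stored esters, had 872, 659 and 3 reads in microglia and 2 and 624 reads in monocytes. *Ch25h*, which makes 25-hydroxycholesterol, a brake on SREBP processing, had 325, 212 and 3 reads in microglia and 3 and 157 reads in monocytes. In all 3 genes monocyte library 2 was close to microglia libraries 1 and 2, and monocyte library 1 had 5 reads or fewer. Their log2 fold changes were between 1.76 and 1.99 with TMM and between −0.97 and −0.43 with library totals.

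Nuclear receptor transcripts were carried by a single library in several cases. *Ppard* (chromosome 17, 28232700 to 28301474), a fatty acid-activated receptor, counted 13266 and 90 reads in the monocyte libraries beside 1722, 392 and 11 in the microglia libraries. Its FPKM was 838 and 2.98 in monocytes and 56.1, 9.38 and 0.40 in microglia. Monocyte library 1 held 85.7% of all its reads, and monocyte library 2 lay inside the microglia range. By edgeR it had a log2 fold change of 9.54 (SE 3.18, adjusted p = 0.139), with a call at 9.58 (adjusted p = 1.7e-05) without monocyte library 2, the 1 member so called beside 2.51% of all genes, and −0.60 without monocyte library 1.

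*Nr1h3* (chromosome 2, 91184061 to 91202834), which encodes LXR alpha, the LXR of macrophages and liver, had 62, 2 and 1 reads in microglia and 2 and 917 reads in monocytes. Its FPKM was 3.72, 0.09 and 0.07 in microglia and 0.23 and 56.0 in monocytes, so monocyte library 2 stood alone. The log2 fold change of 7.02 (SE 2.16) had the smallest p of the members, at an edgeR adjusted p of 0.109, and without monocyte library 1 the gene passed the threshold at 7.73 (adjusted p = 0.00627). Without monocyte library 2 the value was 1.88 (edgeR adjusted p = 0.869).

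*Nr1h2*, which encodes LXR beta, the widely expressed LXR, showed the other pattern, with 499, 4 and 3 reads in microglia and 5 and 2 reads in monocytes. Microglia library 1 held 97.3% of its reads, and the gene did not pass the expression filter. *Rxra*, the retinoid X receptor that pairs with LXR and PPAR, had 1207, 182 and 309 reads in microglia and 3 and 4 reads in monocytes. The groups of *Rxra* did not overlap in CPM, and the log2 fold change was −2.68 (SE 2.14, edgeR adjusted p = 0.556).

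Of the 4 sterol sensing genes, only *Srebf2* exceeded 10 FPKM in any library. *Srebf2* (chromosome 15, 82147181 to 82205379), which encodes the SREBP factor that drives cholesterol synthesis and uptake, had 1124, 72 and 20 reads in microglia and 2 and 10916 reads in monocytes. This was 34.0, 1.60 and 0.68 FPKM in microglia and 0.12 and 336 FPKM in monocytes, and monocyte library 2 held 90.0% of all reads. The log2 fold change was 6.35 (SE 2.39, edgeR adjusted p = 0.211), with 7.11 (adjusted p = 0.00118) without monocyte library 1 and −2.32 without monocyte library 2.

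*Srebf1*, the SREBP factor of fatty acid synthesis, had 236, 50 and 4 reads in microglia and 2 reads in each monocyte library. *Scap*, the sterol-sensing escort of SREBP, had 146, 67 and 1 reads in microglia and 5 and 14 reads in monocytes. *Insig1*, which holds SCAP and SREBP in the endoplasmic reticulum when sterol is plentiful, had 32, 246 and 4 reads in microglia and 0 and 4 reads in monocytes. In monocyte library 2, where *Srebf2* was at its highest, these 3 genes had 2 to 14 reads.

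**Figure D3:**
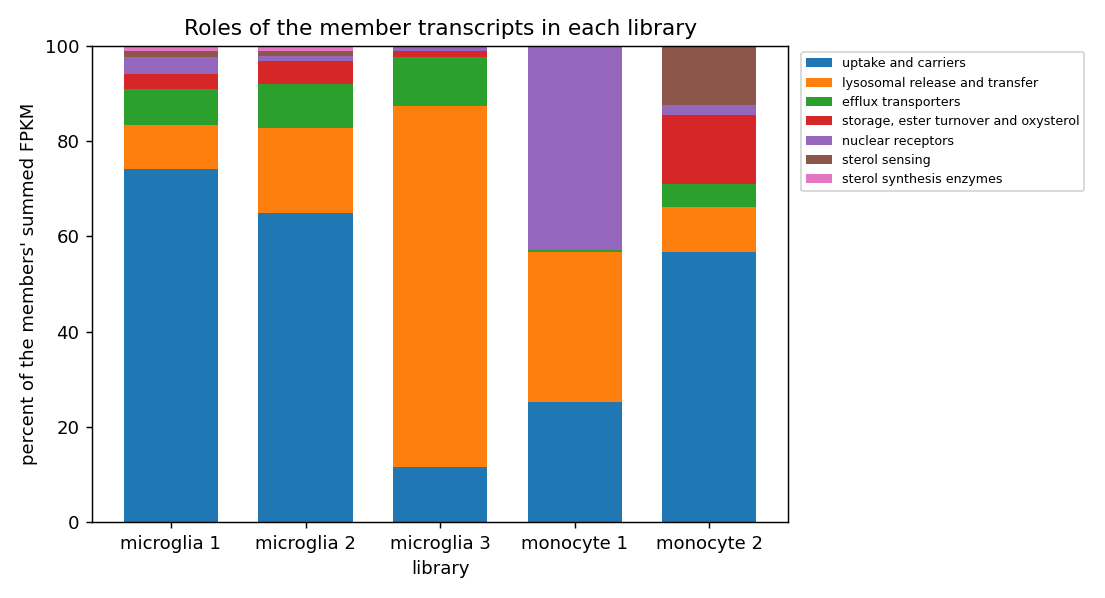
Share of the members' summed FPKM taken by each role, in percent, with 1 stacked bar per library. Uptake genes took 74.1% in microglia library 1 and 11.5% in microglia library 3, lysosomal genes took 75.9% in microglia library 3, and nuclear receptors took 42.7% in monocyte library 1, almost all of it *Ppard*.

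Sterol synthesis enzymes were read in microglia libraries 1 and 2 and were close to absent from the other 3 libraries. Their 9 genes summed to 1085, 459 and 5 reads in microglia and to 4 and 5 reads in monocytes. In CPM this was 164 (exact Poisson 95% interval 154 to 174), 50.9 (46.3 to 55.8) and 0.849 (0.276 to 1.98) in microglia, and 1.17 (0.319 to 3.00) and 0.768 (0.249 to 1.79) in monocytes. These intervals cover counting error only. Microglia library 3 therefore lay with the monocyte libraries and not with its own group.

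With the reads of each group pooled, the enzymes reached 71.9 CPM in microglia against 0.906 CPM for the monocytes, which is 79.3 times as much (41.7 to 174 as the exact 95% interval from counting alone). Leaving out microglia library 1, 2 or 3 gave ratios of 34.3, 96.0 and 109. The pooled ratio was 12.5 with TMM effective library sizes. A typical gene was also lower in monocytes on both scales. Over all genes tested the median log2 fold change was −4.73 with library totals and −1.11 with TMM. Set against the monocytes, microglia library 3 alone gave a ratio of 0.937 (0.247 to 3.11), so the difference was not seen in 1 of the 3 microglia libraries.

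Along the pathway, *Hmgcs1* (chromosome 13, 119690379 to 119708260), which makes HMG-CoA, gave 68, 71 and 1 reads in the microglia libraries but no monocyte read. Against a limit of 3 counts over the monocyte group this was at least 21.5-fold lower in monocytes with library totals and at least 3.38-fold lower with TMM sizes. edgeR gave a log2 fold change of −7.62 (SE 5.12, adjusted p = 0.522), a value that depends on the prior count. *Sqle*, the squalene epoxidase, gave 97, 39 and 0 microglia reads and again no monocyte read, which was at least 20.9-fold lower with library totals and at least 3.28-fold lower with TMM sizes. Its log2 fold change was −7.56 (SE 5.12, edgeR adjusted p = 0.524). In log2 the 2 bounds were −4.43 and −4.39 with library totals, beside a median of −4.73 over all genes tested. With TMM sizes they were −1.76 and −1.71, beside a median of −1.11. These bounds pool the microglia libraries and cover counting error only. Microglia library 3, with 1 *Hmgcs1* read and 0 *Sqle* reads, gives no such bound.

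*Dhcr7*, which catalyses the last step to cholesterol, had the highest mean FPKM of the enzymes through microglia library 1, which held 88.4% of its reads. It had 726, 90 and 2 reads in microglia and 2 and 1 reads in monocytes. edgeR gave it a log2 fold change of −2.14 (SE 2.34, adjusted p = 0.656). *Cyp51*, the lanosterol demethylase, had 84, 163 and 0 reads in microglia and 1 and 0 reads in monocytes. *Fdft1*, the squalene synthase, had 102, 96 and 2 reads in microglia and 0 and 3 reads in monocytes. All 5 tested enzymes had a negative log2 fold change with TMM, with a median of −2.24, and none passed the threshold. Over all genes tested 36.3% had a log2 fold change above 0 with TMM, and the median was −1.11. *Lss*, which closes the sterol ring, had 7 reads in microglia library 1 and 1 read in monocyte library 1, and *Fdps*, which makes farnesyl diphosphate, had 1 read in microglia library 1 and 1 in monocyte library 2.

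2 of these genes share their position with others. *Fdft1* overlaps *Ctsb* (140196 reads over the 5 libraries) and *Cyp51* overlaps *Akap9* (11494 reads), each on the opposite strand, and because strand use in the counting is not given in the sources used here, their reads cannot be told apart with certainty. The same holds for *Srebf1*, which overlaps *Rai1* (2075 reads), and for *Soat1*, which overlaps *Gm37648* (4199 reads). Genes with fewer reads also overlap *Ch25h* (191 reads), *Npc1* (169 reads) and, on the same strand, *Scarb1* (132 reads).

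Promoters were searched for the sterol regulatory element bound by SREBP, written TCACNCCAC, since the synthesis genes were low together in 3 libraries. RefSeq (GRCm38.p6) gave 38 windows of 300 bases around start sites for 27 of the 35 members, and both strands were searched. The synthesis genes *Sqle*, *Fdft1* and *Fdps* had no window and were not searched. A match was found in 2 of the 38 windows, 1 each of *Hmgcs1* and *Stard3*, beside 1.24% of all 32851 windows. The stretches that hold it are shown here with the element in capitals, all of them upstream of the start, to set beside the reads of these 2 genes. The first lies at chr13:119690154-119690282 and the second at chr11:98358118-98358225, both on the plus strand.
Hmgcs1: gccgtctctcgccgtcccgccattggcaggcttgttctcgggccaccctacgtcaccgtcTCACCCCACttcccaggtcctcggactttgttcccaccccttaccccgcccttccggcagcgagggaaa
Stard3: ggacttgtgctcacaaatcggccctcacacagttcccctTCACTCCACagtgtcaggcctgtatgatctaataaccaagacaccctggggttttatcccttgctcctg

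The element began 137 bases before the start in *Hmgcs1* and 211 bases before it in *Stard3*. In CPM *Stard3* lay below the microglia range in each monocyte library and was at 173 reads in microglia library 3. *Hmgcs1* had 1 read there, which its 0 reads in monocytes cannot be told apart from at this depth. No member window held the CLEAR element of lysosomal genes (TCACGTGA, 0.974% of all windows) or the DR4 element of LXR (0.0152% of all windows), which says only that these letters are not in these windows.

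**Figure D4:**
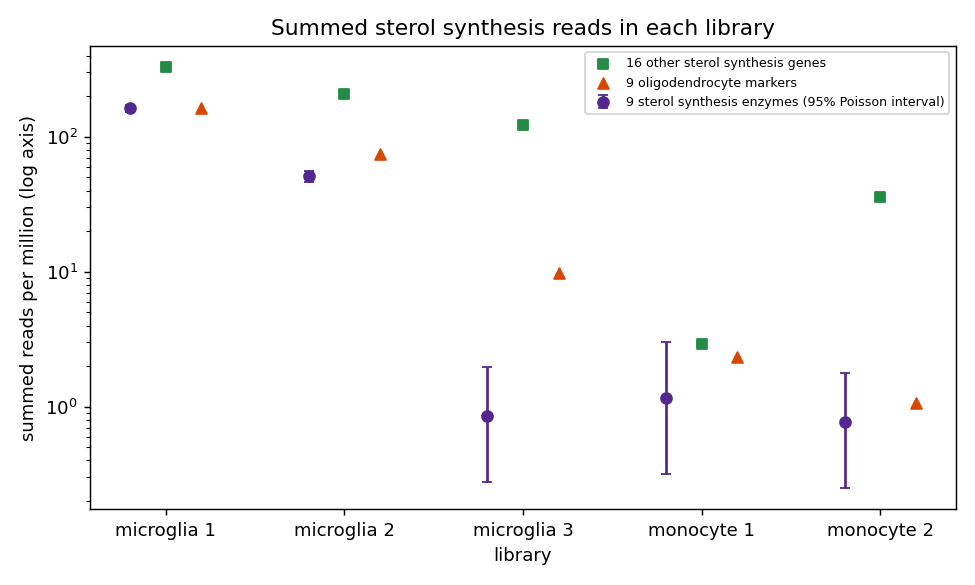
Summed CPM of the 9 sterol synthesis enzymes (purple circles, exact Poisson 95% intervals), 16 other sterol synthesis genes (green squares) and 9 oligodendrocyte markers (orange triangles) in each library, on a log axis. The enzymes and the oligodendrocyte markers are highest in microglia libraries 1 and 2.

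Markers of oligodendrocytes, cells that make much sterol for myelin, were high and low in the same libraries as the sterol enzymes. The 9 markers summed to 1091, 671 and 58 reads in microglia and to 8 and 7 reads in monocytes. Most of these were *Mbp* (595, 385 and 49 reads in microglia and 3 in each monocyte library) and *Cnp* (396, 285 and 6 against 2 and 4 reads), while 3 of the 9 markers were at 0 in every library. The 8 astrocyte markers summed to 646, 571 and 154 reads in microglia and to 8 and 334 reads in monocytes, nearly all *Slc1a3* in microglia and *Slc1a2* in monocyte library 2, and *Gja1* was at 0 throughout. Endothelial markers reached 3208 reads in monocyte library 2, of which *Flt1* had 3205, and border macrophage markers summed to 8.11 to 62.4 FPKM in microglia and to under 0.5 FPKM in monocytes. *Stab1* carried this sum, at 25.7, 4.96 and 61.8 FPKM in microglia, while *Cbr2* and *Lyve1* were at 0 throughout. The part of these cells in the results was not tested.

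Other genes of cholesterol and lipid handling were read from 5 lists of 83 genes, of which 50 were tested. None passed the threshold in either direction by edgeR, and at an unadjusted p under 0.05, 3 were higher (8.52% of all genes) and 2 lower (3.35% of all genes) in monocytes. DESeq2 called 4 higher (9.77% of all genes) and 1 lower (0.990% of all genes), and limma-voom called 0. These shares of the 50 are near those over all genes. In CPM, 23 of the 50 lay below the whole microglia range in each monocyte library, near the 48.0% of all genes tested, and 1 lay above it, beside 0.673%.

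Among these, *Asah1*, the lysosomal acid ceramidase, was the gene higher in both monocyte libraries, at 68.8, 111 and 68.4 FPKM in microglia and at 546 and 253 FPKM in monocytes. The log2 fold change was 6.61 (SE 2.73, edgeR adjusted p = 0.264) with TMM and 2.29 with library totals. *Tmem97*, a sterol-regulated membrane protein, had 7, 29 and 0 reads in microglia and 0 and 212 reads in monocytes, and *Mgll*, the monoacylglycerol lipase, had 135, 62 and 314 against 0 and 1610 reads. Both rested on monocyte library 2, with log2 fold changes of 5.76 (edgeR adjusted p = 0.183) and 3.96 (adjusted p = 0.402).

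Lower in both monocyte libraries were *Lipe*, the hormone-sensitive lipase, with 442, 30 and 1464 reads in microglia against 0 and 5 reads, and *Abca3*, a lipid transporter, with 880, 198 and 1629 against 0 and 7 reads. Their log2 fold changes were −5.85 (edgeR adjusted p = 0.289) and −5.76 (adjusted p = 0.293). *Lipe* and *Abca3* were highest in microglia library 3, the library in which the sterol enzymes were at 5 reads.

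The 16 other sterol synthesis genes did not share the near absence of the 9 enzymes from microglia library 3. Their median log2 fold change over the 10 tested was −2.09 with TMM, beside −1.11 over all genes tested. Their pooled reads ratio of microglia over monocytes was 9.01 (7.92 to 10.3 as the exact 95% interval from counting alone) with library totals. It was 1.41 with TMM sizes and 5.00 for microglia library 3 alone. Without monocyte library 2 the ratio was 75.9, and without monocyte library 1 it was 6.16. *Sc5d*, which encodes a desaturase late in the pathway, had 78, 71 and 1 reads in microglia and 0 and 170 reads in monocytes, so monocyte library 2 held 170 reads of it beside 5 reads of all 9 member enzymes.

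Monocyte reads came mostly from 1 library. Of the 18 members with 10 or more monocyte reads, 11 had over 90% of them in monocyte library 2 and 1, *Ppard*, in monocyte library 1. Of the 35 members 21 had their highest CPM in microglia library 1. No share over all genes was taken for these counts. Monocyte library 2 had 6514611 counts and 4230 genes at 10 reads or more, against 3417150 and 1392 in monocyte library 1. Microglia library 1 had the most such genes, at 11653.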

How the data were processed

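Per the study's methods and the submitters' processing notes, the authors mapped the reads onto GRCm38 using STAR (2.5.2a) and deposited counts of read pairs for each GENCODE vM12 gene and, from R 3.3.2 with edgeR 3.16.5 and limma 3.30.8, FPKM per kilobase of gene and scaled to 1000000 counted pairs. Strand use in counting is not given in the sources used here. Deposited log2 CPM values and the authors' fold changes with p-values were not used, nor were 4 sample columns that are no sample of this series.

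The 2 monocyte libraries were compared with the 3 microglia libraries in edgeR 4.0.16 (R 4.3.3), using quasi-likelihood tests, TMM factors, filterByExpr and Benjamini-Hochberg adjustment over 10105 genes. SE is the size of the log2 fold change divided by the root of F. Alternatives were limma-voom 3.58.1, DESeq2 1.42.0, library totals, RLE factors, other filters, FPKM without mitochondrial genes, FPKM means on a log2 scale and leaving out each library. The pooled ratios, the ratios within a library and the count at equal depth were added after seeing the data. Python 3.11.15 gave the rest, and scripts were tested on simulated data. Coordinates are from GENCODE vM21, and overlapping genes were read from it. Depth ran from 3417150 to 9021700 counts per library.

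The members and all lists were chosen with earlier results of these data known. Every member is named; full statistics go to the 12 members with the smallest p and to the member with the highest mean FPKM of each role, and of each list up to 3 genes with the smallest p were eligible. Other genes were named after their values were seen. Values of some single genes are left out.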

Additional observations from a re-analysis of the deposited data

How the results depend on the processing

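No paired analysis was possible because the 2 groups have no replicate number in common. limma-voom, the other filters and RLE factors left the count of members called at 0, and RLE factors turned *Mylip* to 0.21. DESeq2 called 8 members higher, and 4 genes higher and 1 lower on the other lists, with *Mylip* at 0.21. With library totals the median of the members was −2.43, and 9 log2 fold changes turned: *Apoe* −0.49, *Lrp1* −1.46, *Abca1* −1.37, *Abca7* −2.72, *Abcg1* −0.71, *Soat1* −0.43, *Nceh1* −0.52, *Ch25h* −0.97 and *Scap* −2.43. TMM-scaled CPM gave 2 members lower and 7 higher without overlap in place of 10 and 0. FPKM without mitochondrial genes left 2 of 7 roles with a higher mean in microglia in place of 4. The pooled enzyme ratio was 12.5 with TMM sizes.

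Leaving out each library gave 0 to 3 members called higher, 0 to 1 list genes called higher, a median from −1.58 to 1.63, 10 to 16 members lower and 1 to 5 higher without overlap (49.0% to 75.5% and 0.782% to 12.3% of all genes), and an enzyme ratio from 34.3 to 109. Of 29 members 19 passed the filter in all 5 fits and 10, with the 5 enzymes, in fewer (the enzymes in none without microglia library 1 or 2). In the fits that were run 8 turned sign. *Abca7* (−7.28 to 2.42) and *Ppard* (−0.60 to 10.11) turned without monocyte library 1, and *Abca1* (−2.89 to 1.37), *Soat1* (−3.16 to 2.42), *Nceh1* (−2.66 to 2.65), *Plin2* (−10.07 to 7.43), *Ch25h* (−0.57 to 2.16) and *Srebf2* (−2.32 to 8.47) without monocyte library 2. The 3 members called without monocyte library 1 (2.61% of all genes) were *Plin2*, *Nr1h3* and *Srebf2*, and the 1 called without monocyte library 2 (2.51%) was *Ppard*. With 1 monocyte library left, it was assumed to vary as microglia do. The cause was not tested.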
